A study of Mus musculus with 18 samples.

Results

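RNA of 9 transcription factors that maintain quiescence and the central program of T cells was measured in FACS-purified regulatory T cells (Tregs) with and without CD25. The factors were *Foxo1*, *Foxo3*, *Foxp1*, *Bach2*, *Tcf7*, *Lef1*, *Satb1*, *Bcl11b* and *Ets1*. Each of the 9 symbols matched 1 of the 50600 genes of the count table, and all 9 passed the filter on low counts in both tissues. RNA-seq libraries came from 18 C57BL/6 mice in 4 groups. The thymic CD25 KO group held 5 mice with a floxed *Il2ra* gene and Cre expressed from the *Foxp3* locus (CD25 flox/Foxp3-YFP/Cre), which had been "cured" of autoimmunity by WT splenocytes given after birth, and the thymic WT group held 5 Foxp3/RFP reporter mice. All thymic mice were 3 to 4 weeks old. The splenic CD25 KO group held 4 CD25 flox/Foxp3eGFP-Cre-ERT2/R26Y mice, in which tamoxifen activates Cre in *Foxp3*-expressing cells and turns on YFP in them. The splenic WT group held 4 tamoxifen-treated reporter controls with CD25 intact. Tamoxifen was given at 7 to 10 weeks of age, and splenic Tregs were collected 10 to 14 days later. Tissue, age, mouse model and the date in the column headers changed together between thymic and splenic samples, so their parts in a difference between tissues cannot be told apart. Thymic WT mice reported *Foxp3* with RFP and thymic CD25 KO mice with YFP/Cre, so the reporter allele and Cre changed with the genotype there. The transfer of WT splenocytes is described for the thymic CD25 KO mice alone, so it cannot be told apart from the genotype either.

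FOXO1 and FOXO3 are forkhead factors that are held in the cytoplasm when AKT phosphorylates them downstream of antigen and cytokine receptors, and that act in the nucleus of resting cells on genes of homing, survival and cell-cycle arrest. FOXP1 is a forkhead factor of the same subfamily as FOXP3 and supports the quiescence of naive T cells. BACH2 is a repressor that holds back effector genes in T cells and favors central over effector Tregs. TCF1 (*Tcf7*) and LEF1 are HMG-box factors of naive and stem-like T cells, while SATB1, BCL11B and ETS1 organize the chromatin and gene expression of the T cell lineage, including that of thymic Treg precursors. CD25, encoded by *Il2ra*, is the alpha chain of the high-affinity receptor for IL-2, which signals mainly through STAT5.

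Thymic libraries had total counts of 17239774 to 23993674 and splenic libraries of 25258341 to 32639570, and single libraries held 2374 to 76530 counts of a given factor. *Il2ra* was at 664, 652, 524, 682 and 544 CPM, that is counts scaled to the size of the library, in the thymic WT mice and at 105, 279.9, 96.1, 234 and 95.9 CPM in the thymic CD25 KO mice, from mouse 1 to mouse 5 of each group. It was at 537, 488, 532 and 539 CPM in the splenic WT mice and at 191, 208, 168 and 179 CPM in the splenic CD25 KO mice. Every CD25 KO mouse thus lay below every WT mouse of its tissue, and the thymic CD25 KO mice 2 and 4 stood above the other 3. Cre removes exon 4 of *Il2ra*, so reads of the other exons are still counted. *Foxp3*, which defines Tregs, was at 203.7 CPM or more in every library and was lower without CD25 in both tissues, with log2 fold changes of -0.74 in the thymus (FDR = 0.00101 by edgeR) and -0.55 in the spleen (FDR = 6.9e-06 by edgeR). Of 8 Treg markers, *Foxp3* and *Il2ra* among them, 0 were called higher and 4 lower in the thymus, against 3.17% and 2.99% of all genes. In the spleen 4 of the 8 were called higher and 2 lower, against 5.90% and 3.55%. Markers of other cells that a sort could carry also differed between groups. The summed level of 7 B cell markers, nearly all of it *Ighm*, was lower without CD25 in the thymus, with 107 to 136 CPM against 59.3 to 77.2 CPM, and higher without CD25 in the spleen, with 433 to 539.6 CPM against 588 to 709.8 CPM. Of these markers 1 was called lower in the thymus and 2 were called higher in the spleen, where *Pax5*, which defines B cells, was at 1.02 to 2.17 CPM in WT and at 2.69 to 3.58 CPM in CD25 KO mice. In the spleen the summed levels of 6 markers of CD8 T and NK cells (12.9 to 17.5 against 19.3 to 26.6 CPM) and of 8 myeloid markers (11.7 to 17.2 against 16.9 to 22.8 CPM) were higher on average without CD25. In each list 1 marker was called higher. The 4 CD8 T and NK cell markers that were tested there all had positive log2 fold changes. Of the 3 myeloid markers tested, 1 was positive and 2 were negative, with a median log2 fold change of -0.23. The part of such cells in the results was not tested. The summed level of 10 markers of immature thymocytes was 289 to 463 CPM in thymic WT and 342 to 455 CPM in thymic CD25 KO mice, and 1 of the 10, *Rag1*, was at 0 counts in every splenic library. In bulk samples, fewer cells of a type and less RNA per cell cannot be told apart.

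Of the promoters at hand, that of *Bach2* is shown because *Bach2* had the largest splenic change among these factors and because a STAT motif lies in it. RefSeq windows from 250 bases before to 50 bases after a transcription start were at hand for 8 of the 9 genes, with 18 windows in all on GRCm38.p6. The motifs searched, on both strands, were TTCNNNGAA, the core that STAT dimers bind, which reads the same on either strand, and TGTTTAC, a forkhead core. The STAT core was in 1 of the 18 windows and in 8.3% of all 32851 windows, and the forkhead core was in 1 of the 18, just after a start of *Tcf7*, and in 3.65% of all windows. The 250 bases before the *Bach2* start, at chr4:32417185-32417434 on the plus strand, are given here with the match to the STAT core in capitals.
Bach2: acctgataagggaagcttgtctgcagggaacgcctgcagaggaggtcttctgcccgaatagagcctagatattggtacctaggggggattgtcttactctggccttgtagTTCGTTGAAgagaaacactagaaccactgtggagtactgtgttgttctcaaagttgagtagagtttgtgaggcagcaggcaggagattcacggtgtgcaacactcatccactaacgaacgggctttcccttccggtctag
The match begins 140 bases before the start. The 250 bases shown overlap no *Bach2* exon of GENCODE M21. They lie 178381 bases inside the 5′ end of the annotated gene, whose longer transcripts begin farther upstream. The bases just after the start occur in 4 annotated *Bach2* transcripts, and whether they begin those transcripts was not tested. A match to these letters is a description of the sequence, not evidence of binding.

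Splenic Tregs without CD25 held less *Bach2*, *Foxp1* and *Foxo1* and more *Tcf7* than WT Tregs. In the thymus, *Foxp1* was higher without CD25, and the other 8 factors did not pass the test. Within a tissue, CD25 KO and WT mice were tested by the quasi-likelihood method of edgeR, p-values were adjusted over all genes as by Benjamini and Hochberg, and genes with FDR < 0.01 were called. In the spleen 4 of the 9 factors were called, against 9.45% of all 17463 genes tested. Of these, 3 were lower and 1 was higher, against 3.55% and 5.90% of all genes. The splenic count was 2 or 3 whenever a single mouse was left out. The splenic calls of *Foxo1* and *Tcf7* were lost under 7 and 9 of 15 alternative settings. In the thymus 1 of the 9 was called, higher, against 6.16% of all 16986 genes tested in either direction and 3.17% higher. The CPM ranges of both genotypes were apart for 5 factors in the spleen, against 20.4% of all genes, and for 1 in the thymus, against 16.4%. The median log2 fold change of the 9 was -0.17 in the spleen, where that of all genes was -0.006, and 0.08 in the thymus, where that of all genes was -0.002. The genes were chosen with earlier results of these data known, so these counts are a description of them.

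**Figure D1:**
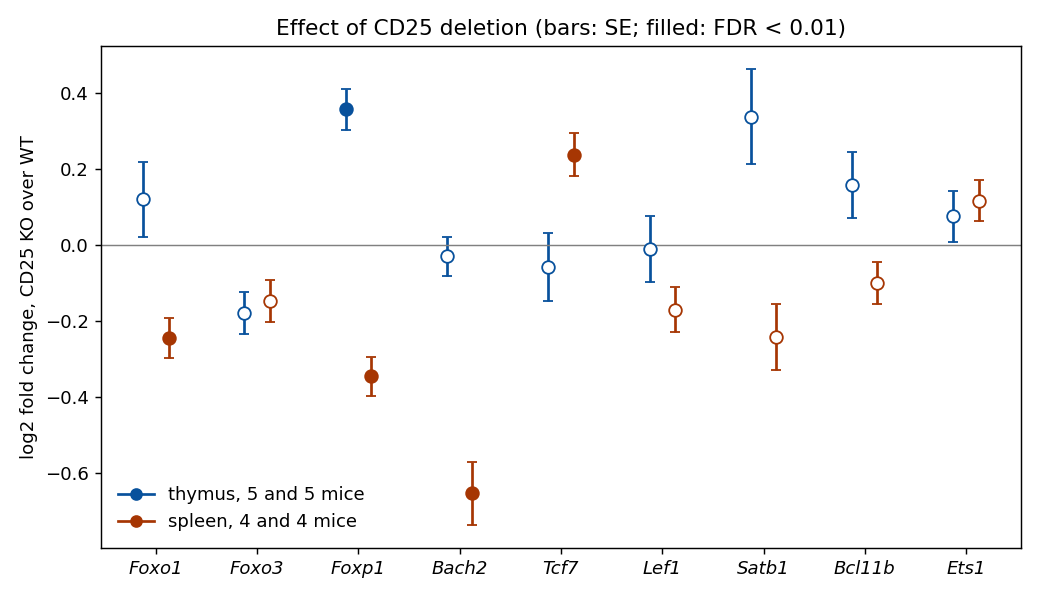
Log2 fold change of CD25 KO over WT for each factor in the thymus (blue, 5 and 5 mice) and the spleen (orange, 4 and 4 mice), with bars for the SE. Filled points passed FDR < 0.01, which were *Foxp1* in the thymus and *Foxo1*, *Foxp1*, *Bach2* and *Tcf7* in the spleen.

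*Bach2* (ENSMUSG00000040270.16) lies on chromosome 4, from 32238804 to 32586108 on the plus strand of GRCm38. It was at 126.2, 148, 170.4 and 159 CPM in the splenic WT mice and at 96.8, 85.6, 93.6 and 107 CPM in the splenic CD25 KO mice. All 4 CD25 KO mice lay below all 4 WT mice. The mean fell from 151 ± 18.8 CPM (SD, n = 4) to 95.8 ± 8.94 CPM (SD, n = 4), a log2 fold change of -0.65 (SE 0.0832, FDR = 5.72e-05 by edgeR), or 1.57-fold lower. It remained called under all 15 alternative settings tried, with log2 fold changes of -0.73 to -0.59. In the thymus *Bach2* was at 385, 399, 389, 363 and 354 CPM in WT and at 397, 354, 377, 355 and 349 CPM in CD25 KO mice. These groups overlapped, and the log2 fold change was -0.03 (SE 0.0518, FDR = 0.711 by edgeR). The difference between the splenic and the thymic effect was itself past the threshold, at -0.61 (SE 0.107, FDR = 0.000745 by edgeR in 1 fit of all 18 samples).

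*Bach2os*, an antisense transcript that shares 537 exonic bases with *Bach2* on the opposite strand, moved the same way at a far lower level. It fell from 5.45 ± 0.185 CPM (SD, n = 4) to 3.14 ± 0.947 CPM (SD, n = 4) in the spleen, a log2 fold change of -0.79 (SE 0.188, FDR = 0.0081 by edgeR). Whether counting used strand is not stated in the sources used here, so it is not known how reads of the shared bases were assigned. The shared bases are 5.40% of the exonic bases of *Bach2*.

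*Foxp1* (ENSMUSG00000030067.17) lies on chromosome 6, from 98925338 to 99522721 on the minus strand. In the thymus it was at 359.6, 339.6, 366, 353 and 338 CPM in WT and at 476, 423, 449, 414 and 466 CPM in CD25 KO mice. All 5 CD25 KO mice lay above all 5 WT mice. The mean rose from 351 ± 12.2 CPM (SD, n = 5) to 446 ± 26.7 CPM (SD, n = 5), a log2 fold change of 0.36 (SE 0.0531, FDR = 0.00199 by edgeR). Without the thymic CD25 KO mice 2 and 4, which retained the most *Il2ra*, it was 0.41 (FDR = 0.000715 by edgeR). The thymic call was kept under 19 of 20 alternatives, and under the other 1 the FDR was 0.0118 by edgeR. In the spleen *Foxp1* was at 327, 345, 367 and 353 CPM in WT and at 274, 274, 258 and 287 CPM in CD25 KO mice. There all 4 CD25 KO mice lay below all 4 WT mice. The log2 fold change was -0.34 (SE 0.0521, FDR = 0.000265 by edgeR), and it stayed called under all 15 alternatives. The splenic minus the thymic effect was -0.69 (SE 0.0748, FDR = 5.07e-06 by edgeR), the largest such difference among the 9 factors in size.

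*Gm20696*, a protein-coding annotation on the same strand that shares 300.0 exonic bases with *Foxp1*, or 2.18% of its exons, followed the same pattern. It was called higher in the thymus, with a log2 fold change of 0.64 (SE 0.123, FDR = 0.00546 by edgeR), and lower in the spleen, with -0.89 (SE 0.156, FDR = 0.000848 by edgeR). Its mean level was 41.2 ± 4.82 CPM (SD, n = 5) in thymic WT and 26.9 ± 3.20 CPM (SD, n = 4) in splenic WT mice, far under that of *Foxp1*. *Foxp4*, a close paralog of *Foxp1*, was at log2 fold changes of -0.13 (FDR = 0.157 by edgeR) in the thymus and -0.07 (FDR = 0.497 by edgeR) in the spleen.

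*Foxo1* (ENSMUSG00000044167.6) lies on chromosome 3, from 52268336 to 52353221 on the plus strand. It was at 335, 367, 351 and 360.2 CPM in splenic WT and at 290.4, 288, 291 and 323 CPM in splenic CD25 KO mice. The highest CD25 KO mouse, number 4, was still below the lowest WT mouse. The log2 fold change was -0.24 (SE 0.053, FDR = 0.00451 by edgeR), or 1.18-fold lower. This call lay close to the threshold, and leaving out splenic WT mouse 2, 3 or 4 or splenic CD25 KO mouse 1, 2 or 3 raised the FDR to between 0.0119 and 0.0226 by edgeR, and 1 fit of all 18 samples raised it to 0.113. In the thymus *Foxo1* was at 440.4, 465, 419.8, 465.5 and 493 CPM in WT and at 557, 491, 547, 501 and 363 CPM in CD25 KO mice. The thymic CD25 KO mouse 5 was the lowest of all 10, and the groups overlapped. The thymic log2 fold change was 0.12 (SE 0.0987, FDR = 0.393 by edgeR). The difference of the effects was -0.35 (SE 0.126, FDR = 0.0606 by edgeR), and without that mouse it was -0.44 (FDR = 0.00105 by edgeR). Under the other 24 of 25 alternatives it was not called, with values of -0.43 to -0.31 and FDR of up to 0.109 by edgeR.

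*Foxo3* (ENSMUSG00000048756.11; chromosome 10, 42181841 to 42276755, minus strand) passed the test in neither tissue. It ranged from 197 to 225 CPM in thymic WT and from 164 to 197 CPM in thymic CD25 KO mice, so that 1 CD25 KO mouse reached the WT range. The log2 fold change was -0.18 (SE 0.0552, FDR = 0.0369 by edgeR), and it was -0.014 (FDR = 0.876 by edgeR) with a correction for GC content. In the spleen it ranged from 134 to 154 CPM in WT and from 125.3 to 141 CPM in CD25 KO mice, with a log2 fold change of -0.15 (SE 0.056, FDR = 0.0881 by edgeR). *Foxo4*, the third FOXO gene that passed the filter, was at log2 fold changes of 0.12 (FDR = 0.123 by edgeR) and 0.03 (FDR = 0.838 by edgeR) in thymus and spleen.

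*Tcf7* (ENSMUSG00000000782.15) lies on chromosome 11, from 52252371 to 52283014 on the minus strand. It was at 629.6, 723, 733 and 703 CPM in splenic WT and at 830.2, 833, 793 and 829.8 CPM in splenic CD25 KO mice. It was the 1 factor called higher in the spleen, and no CD25 KO mouse reached down to the WT range. The log2 fold change was 0.24 (SE 0.0555, FDR = 0.00706 by edgeR), or 1.18-fold higher. The call depended on single mice. Leaving out any of the 4 splenic WT mice or CD25 KO mouse 1, 2 or 4 raised the FDR to between 0.011 and 0.0233 by edgeR, upper-quartile scaling raised it to 0.0111, and 1 fit of all 18 samples to 0.103. In the thymus the groups overlapped, at 665 to 902 CPM in WT and 653 to 838 CPM in CD25 KO mice, with a log2 fold change of -0.06 (SE 0.0891, FDR = 0.672 by edgeR).

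*Lef1* (ENSMUSG00000027985.14; chromosome 3, 131110471 to 131224356, plus strand), the paralog of *Tcf7*, did not share its splenic rise. It was at 192, 209, 227 and 211 CPM in splenic WT and at 191, 170.2, 188 and 196 CPM in splenic CD25 KO mice. The groups overlapped, and the log2 fold change was -0.17 (SE 0.059, FDR = 0.0606 by edgeR). In the thymus it was -0.01 (SE 0.0871, FDR = 0.945 by edgeR), with 392 to 530.3 CPM in WT and 402 to 504 CPM in CD25 KO mice. The antisense annotation *Gm43352* shares 1208 exonic bases with *Lef1*, or 13.75% of its exons.

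*Satb1* (ENSMUSG00000023927.15; chromosome 17, 51736187 to 51833290, minus strand) varied more between mice than the other 8 factors in thymic CD25 KO and in splenic WT Tregs, where its SD was 20.6% and 13.9% of the mean. In the thymus it was at 1373, 1264, 1647, 1359 and 1361 CPM in WT and at 1878, 1426, 1836, 1376 and 2254 CPM in CD25 KO mice. The CD25 KO mice 1, 3 and 5 lay above every WT mouse, and mice 2 and 4, those with the most *Il2ra*, lay among them. The log2 fold change was 0.34 (SE 0.126, FDR = 0.0692 by edgeR), and without mice 2 and 4 it was 0.52 (SE 0.0971, FDR = 0.00357 by edgeR). Under the other 19 of 20 alternatives it was not called, with FDR of up to 0.151 by edgeR, and without mouse 5 it was 0.23 (FDR = 0.127 by edgeR). In the spleen *Satb1* was at 277, 279.8, 356 and 354 CPM in WT and at 278, 230.3, 279 and 281 CPM in CD25 KO mice. The log2 fold change was -0.24 (SE 0.0869, FDR = 0.0695 by edgeR), and the CD25 KO mice overlapped with the lower WT mice. The difference of the effects was -0.57 (SE 0.177, FDR = 0.0321 by edgeR), and without the thymic mice 2 and 4 it was -0.75 (FDR = 0.000966 by edgeR). *Rag1*, the recombinase gene of immature thymocytes, was at 47.2 CPM in thymic CD25 KO mouse 5, which had the most *Satb1*, and at 17.5 to 28.5 CPM in the other 4 of its group. It was at 93.1 CPM in thymic WT mouse 4, whose *Satb1* was not raised. The part of such cells in the level of *Satb1* was not tested.

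*Bcl11b* (ENSMUSG00000048251.15; chromosome 12, 107910403 to 108003602, minus strand) and *Ets1* (ENSMUSG00000032035.15; chromosome 9, 32636221 to 32757820, plus strand) passed the test in neither tissue. *Bcl11b* had a log2 fold change of 0.16 (SE 0.0869, FDR = 0.201 by edgeR) in the thymus, where thymic CD25 KO mouse 5 was again the lowest of all 10 at 704 CPM. In the spleen it was -0.10 (SE 0.0548, FDR = 0.246 by edgeR). *Ets1* was at 2092, 2176, 2266 and 2174 CPM in splenic WT and at 2271, 2429.6, 2318 and 2423 CPM in splenic CD25 KO mice. These ranges did not overlap, yet the log2 fold change of 0.12 (SE 0.0531, FDR = 0.147 by edgeR) did not pass the test. In the thymus it was 0.08 (SE 0.0674, FDR = 0.436 by edgeR).

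**Figure D2:**
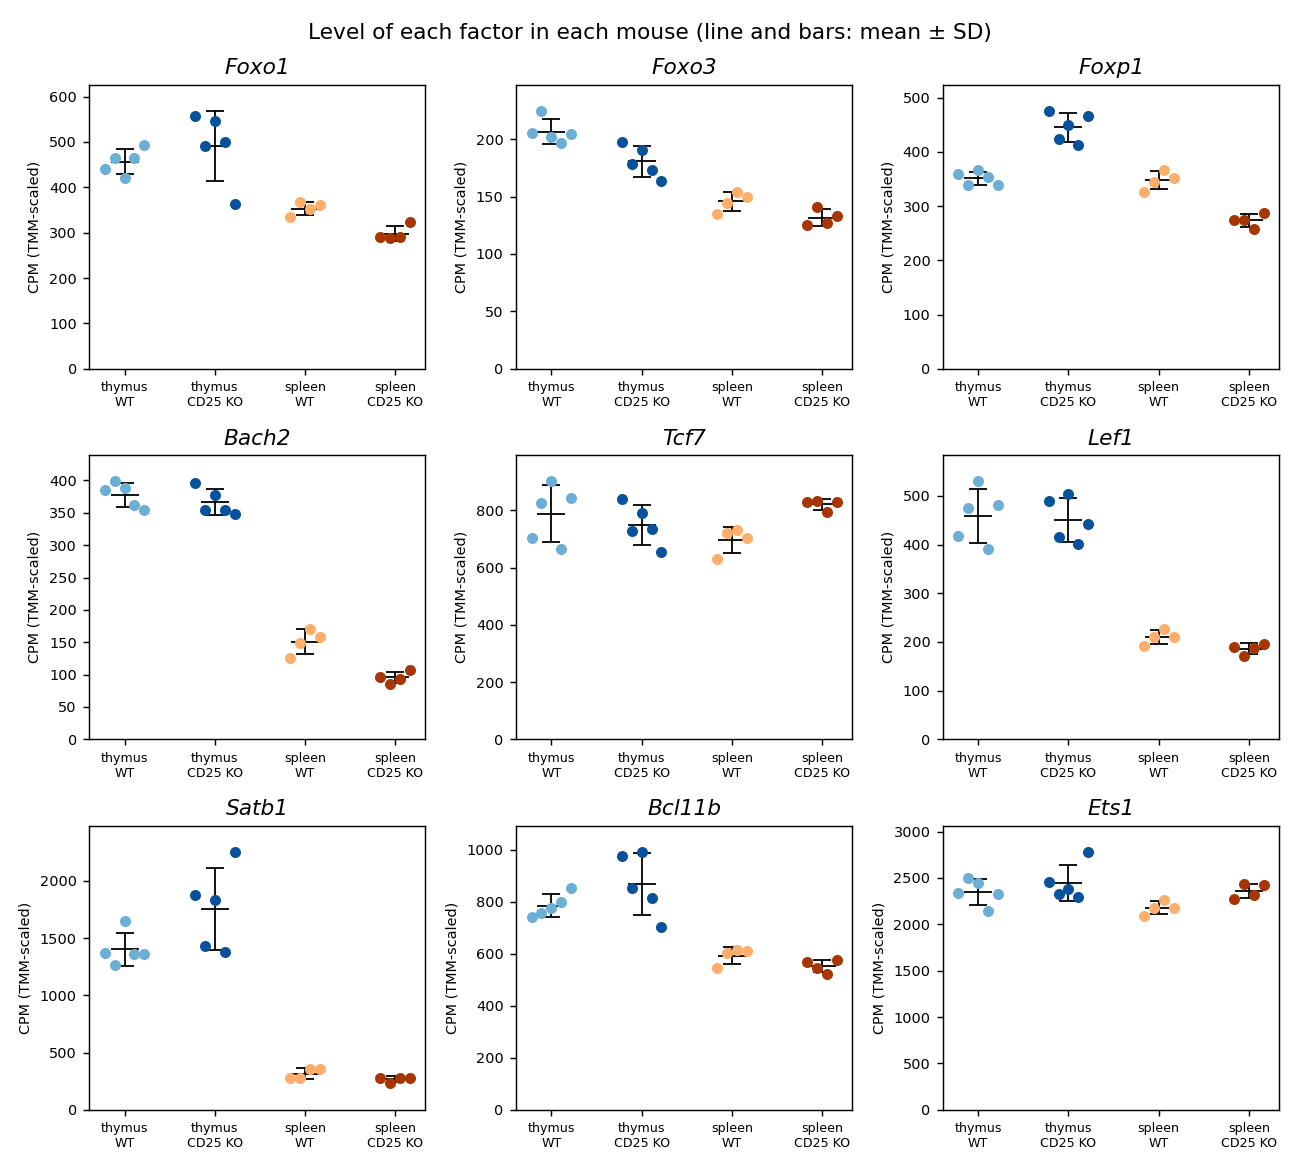
CPM of each factor in every mouse, with the group mean and SD in black. *Foxo3*, *Bach2*, *Lef1*, *Satb1* and *Bcl11b* are lower in every splenic than in every thymic mouse, *Foxp1* separates CD25 KO from WT in opposite directions in the tissues, and *Ets1* is at similar levels throughout.

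Between tissues, most of these factors were lower in the spleen. Among WT Tregs, 6 of the 9 were called lower in the spleen than in the thymus, against 19.5% of all 18686 genes tested, and among CD25 KO Tregs 7 of the 9 were, against 24.4%. *Satb1* had the largest difference, with log2 fold changes of -2.15 (SE 0.133, FDR = 4.63e-11 by edgeR) in WT and -2.71 (SE 0.137, FDR = 8.7e-13 by edgeR) in CD25 KO Tregs. *Bach2* differed by -1.32 (SE 0.078, FDR = 2.04e-11 by edgeR) in WT and by -1.93 (SE 0.08, FDR = 4.21e-14 by edgeR) in CD25 KO Tregs. *Lef1* differed by -1.13 in WT and -1.28 in CD25 KO Tregs, *Foxo3* by -0.50 and -0.46, *Bcl11b* by -0.41 and -0.65, and *Foxo1* by -0.37 and -0.72, all of them called. *Foxp1* was called only in CD25 KO Tregs, at -0.70 (SE 0.0535, FDR = 5.35e-10 by edgeR), and in WT Tregs its difference was -0.01 (SE 0.0528, FDR = 0.838 by edgeR). The difference between those values is the same quantity as the difference of the CD25 KO effects given above. *Tcf7* and *Ets1* were called in neither. Markers of immature thymocytes moved with these tissue differences, since *Rag1* was at 14 to 93.1 CPM in thymic libraries and at 0 in splenic ones, and their part in the tissue differences was not tested.

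The order of the 4 groups differed among the factors. Mean CPM of *Foxo3*, *Bach2* and *Lef1* fell from thymic WT through thymic CD25 KO and splenic WT to splenic CD25 KO, with thymic WT and thymic CD25 KO not differing past the threshold, and with splenic WT and splenic CD25 KO differing past it for *Bach2* alone of these 3. *Foxo1*, *Foxp1*, *Satb1* and *Bcl11b* had the same order except that thymic CD25 KO stood above thymic WT, a step that passed the test for *Foxp1* alone of these 4. *Tcf7* was highest in splenic CD25 KO and lowest in splenic WT Tregs, and that step passed the test. *Ets1* was highest in thymic CD25 KO and lowest in splenic WT Tregs, with no step between WT and CD25 KO or between tissues past the threshold.

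Per kilobase of exons, *Tcf7* and *Ets1* were the most abundant of the 9 factors in every group. In thymic WT Tregs *Tcf7* was at 300.3 ± 38.1 RPKM (SD, n = 5) and *Ets1* at 277 ± 16.2 RPKM (SD, n = 5), and their ranges overlapped. *Bcl11b* followed at 96.8 ± 5.47 RPKM (SD, n = 5) and *Satb1* at 73.6 ± 7.59 RPKM (SD, n = 5). *Foxo1* at 52.7 and *Lef1* at 52.2 RPKM were within their SDs of each other, and *Bach2* at 38.0, *Foxo3* at 27.3 and *Foxp1* at 25.6 RPKM were the lowest. In splenic WT Tregs *Satb1*, at 16.6 ± 2.31 RPKM (SD, n = 4), and *Bach2*, at 15.2 ± 1.89 RPKM (SD, n = 4), were the lowest of the 9, and they did not differ beyond their SDs. In splenic CD25 KO Tregs *Bach2* was the lowest, at 9.64 ± 0.899 RPKM (SD, n = 4).

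**Figure D3:**
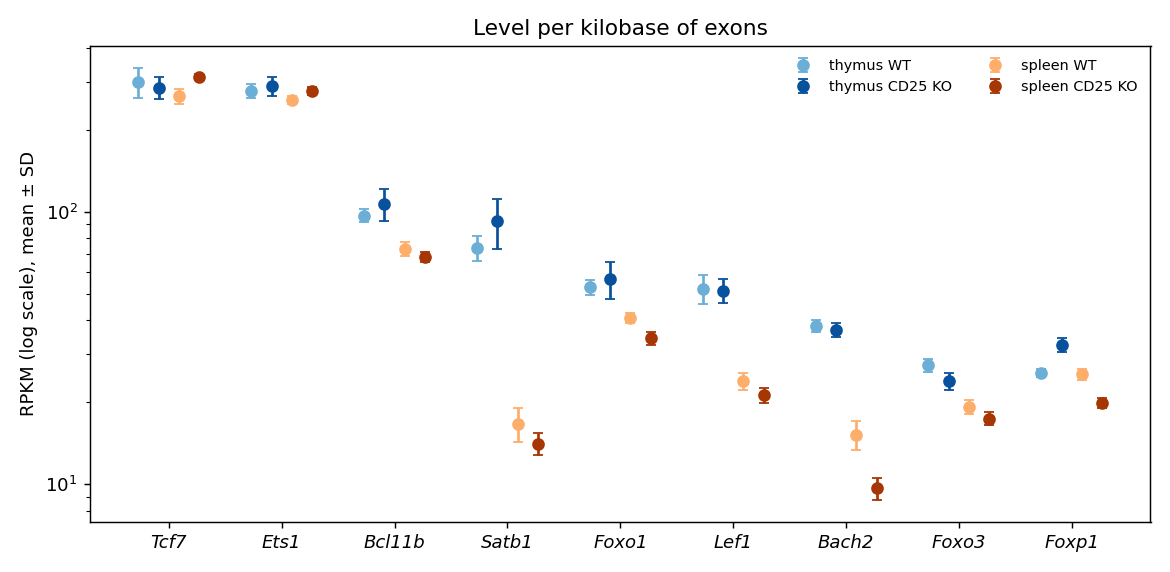
Mean RPKM, that is CPM per kilobase of annotated exons, of each factor in the 4 groups on a log scale, with bars for the SD over 5 thymic or 4 splenic mice. *Satb1* and *Bach2* drop down the order between thymus and spleen, while *Tcf7* and *Ets1* stay at the top.

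Within groups the factors varied together to different degrees. Each mouse's log2 CPM was taken as a deviation from its group mean, which removes the differences between tissues and genotypes, and Pearson's r was computed over the 18 mice as a description, since the libraries share their depth, composition and scaling. Of the 36 pairs, 13 had r above 0.5 and 1 had r below -0.5, with a median of 0.46. *Foxo1* and *Bcl11b* varied most closely, with r = 0.88, followed by *Tcf7* and *Lef1* with 0.80 and *Satb1* and *Foxp1* with 0.74. *Foxo1* and *Ets1* varied in opposite directions, with r = -0.53. Thymic CD25 KO mouse 5 had the lowest *Foxo1* and *Bcl11b* and the highest *Satb1* and *Ets1* of the thymic CD25 KO mice, so it weighs on several of these pairs.

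**Figure D4:**
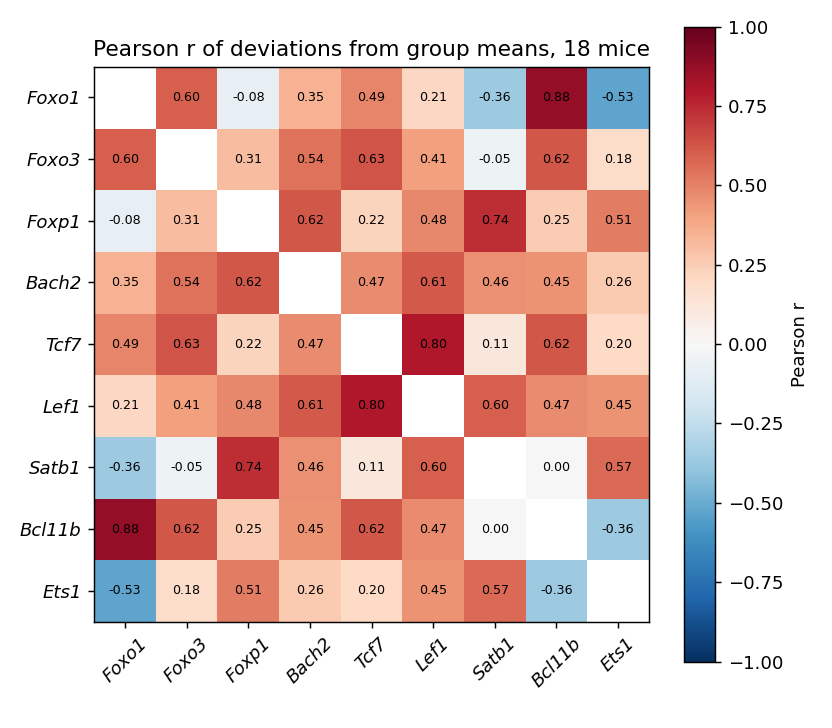
Pearson's r between factors, computed over 18 mice on deviations of log2 CPM from the group means, with red for positive and blue for negative values. The highest value is that of *Foxo1* with *Bcl11b* (0.88) and the lowest that of *Foxo1* with *Ets1* (-0.53).

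Genes with the most similar patterns were sought among 8764 other genes by Pearson's r of log2 CPM over the 18 mice, where differences between tissues dominate. *Bach2* was most like *Ifngr2* (r = 0.99), a chain of the interferon gamma receptor, and *Tet3* (0.99), a DNA demethylation enzyme. *Satb1* was most like *Ccr9* (0.99), a chemokine receptor of thymocytes and gut-homing cells, and *Ugcg* (0.99), the glucosylceramide synthase. *Lef1* was nearest to *Amigo2* and *Dgkd* (both 0.99), *Foxo1* to *Depdc5* (0.97) and *Proser1* (0.96), and *Foxo3* to *Traf4* and *Vapb* (both 0.97). *Foxp1* was nearest to *Tnik* (0.96) and *Klf7* (0.95), and *Bcl11b* to *Pced1b* and *Mex3b* (both 0.96). *Ets1*, with *Stk4* and *Ifi47* (both 0.88), and *Tcf7*, with *Hs3st3b1* (0.84) and *Susd6* (0.78), had no partner as close.

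Transcription factors of effector cells, whose program BACH2 opposes, were called higher in splenic CD25 KO Tregs for 12 of the 12 genes listed, against 5.90% of all genes tested. Their median log2 fold change was 0.84. The list was chosen with earlier results of these data known, and the study had already named *Prdm1* and *Irf4* as higher in these samples. The count is therefore a description of these genes. The largest changes were those of *Pparg* (1.90, SE 0.231), the factor of tissue Tregs, *Bhlhe40* (1.08, SE 0.0955), a basic helix-loop-helix factor of activated T cells, and *Nfil3* (1.04, SE 0.112), a basic leucine zipper factor, all with FDR of at most 3.91e-05 by edgeR. *Prdm1*, which encodes BLIMP-1, rose from 37.9 ± 5.10 to 75.8 ± 2.72 CPM (SD, n = 4 and 4), a log2 fold change of 1.00 (SE 0.0773, FDR = 6.17e-07 by edgeR). With all 18 samples in 1 fit 9 of the 12 passed. In the thymus 3 of the 11 genes tested were called, all lower, against 2.99% of all genes, and the median was -0.27. These were *Nfil3* (-1.42, SE 0.287), *Prdm1* (-1.05, SE 0.182) and *Irf4* (-0.81, SE 0.151). This thymic count depended on single mice, since it fell to 0 without CD25 KO mouse 1, to 1 without WT mouse 2, 3 or 5 or without CD25 KO mouse 3, and rose to 4 without CD25 KO mouse 4. In the difference of the effects between tissues, 8 of the 11 genes tested in both were past the threshold, all higher in the spleen, against 4.50% of all genes, while *Bach2* and *Foxp1* were past it as lower, against 2.49%.

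Genes that FOXO factors are known to regulate, with other quiescence genes, did not move one way. Of 18 tested, 5 were called lower and 2 higher in the spleen, against 3.55% and 5.90% of all genes. *Bcl2* (log2 fold change -1.01, SE 0.0583, FDR = 3.95e-08 by edgeR), the survival factor, and *Ccr7* (-0.60, SE 0.0729, FDR = 3.49e-05), which encodes a lymph node homing receptor, were among those that fell. *Bcl6* (0.83, SE 0.0633, FDR = 6.14e-07 by edgeR), a repressor of effector genes, and *Slfn2* (0.32, SE 0.0604, FDR = 0.00147) rose. In the thymus 2 were called higher, *Cdkn1b* (0.28, SE 0.0578), the cell-cycle inhibitor p27, and *Sesn3* (0.27, SE 0.0506), and 2 lower, *Tob1* (-0.65, SE 0.0924) and *Klf2* (-0.53, SE 0.0903), with FDR of 0.00163 to 0.00756 by edgeR, against 3.17% higher and 2.99% lower of all genes. The higher calls numbered 0 without WT mouse 2 or 3 or CD25 KO mouse 1 or 3, and 1 without any other single mouse. The lower calls numbered 1 without WT mouse 2, 3 or 5 or CD25 KO mouse 3, and 2 or 3 otherwise. The list's median log2 fold change was 0 in thymic and -0.01 in splenic Tregs.

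Genes that control FOXO factors through PI3K, AKT and mTOR also moved both ways in the spleen, where 3 of 18 were called higher and 2 lower, against 5.90% and 3.55% of all genes. When single mice were left out, the higher calls numbered 2 or 3, and the lower calls numbered 1 without splenic WT mouse 2. *Sgk1* (0.62, SE 0.104, FDR = 0.000645 by edgeR), a kinase that phosphorylates FOXO proteins, *Phlpp1* (0.33, SE 0.0602), a phosphatase of AKT, and *Pik3ca* (0.24, SE 0.0538), a catalytic subunit of PI3K, rose. *Pik3r1* (-0.33, SE 0.0542) and *Pik3cd* (-0.26, SE 0.0518), a regulatory and a catalytic subunit of PI3K, fell, with FDR of 0.000511 and 0.00233 by edgeR. In the thymus 1 of the 18 was called, *Rictor*, a subunit of mTORC2, at 0.42 (SE 0.0911, FDR = 0.00969 by edgeR), against 3.17% of all genes called higher, and the list's count fell to 0 when any 1 mouse other than CD25 KO mouse 4 or 5 was left out.

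Among 12 tested cofactors and targets of TCF1 and LEF1, 2 were called lower in each tissue, against 2.99% of all genes in the thymus and 3.55% in the spleen. The thymic count fell to 1 without WT mouse 2 or 3. The corepressor gene *Tle1* was called lower in both, at log2 fold changes of -0.93 (SE 0.128, FDR = 0.0013 by edgeR) in the thymus and -0.75 (SE 0.123, FDR = 0.000522 by edgeR) in the spleen. *Axin2*, a standard target of Wnt signaling, fell in the thymus (-0.64, SE 0.111, FDR = 0.00363 by edgeR), and *Bcl9l*, a coactivator of beta-catenin, fell in the spleen (-0.33, SE 0.0554, FDR = 0.000587 by edgeR). Of the paralogs of the 9 factors, 16 were tested in the thymus and 14 in the spleen. In the thymus 1 was called lower, against 2.99% of all genes. In the spleen 2 were called higher, against 5.90%, and 1 to 3 were when single mice were left out. *Etv6*, an ETS-family repressor, was lower in the thymus (-0.41, SE 0.0562, FDR = 0.00129 by edgeR) and higher in the spleen (0.38, SE 0.0613, FDR = 0.000457 by edgeR), and *Elf1*, another ETS factor, was higher in the spleen (0.24, SE 0.0548, FDR = 0.00581 by edgeR). Of 12 other factors of T cell identity, *Runx3*, a factor of the CD8 lineage and of Th1 cells, was lower in the thymus (-1.70, SE 0.189, FDR = 0.000355 by edgeR) and higher in the spleen (0.30, SE 0.053, FDR = 0.000858 by edgeR). *Tox*, an HMG-box factor of thymocyte development, was higher in both, by 0.38 (SE 0.0744, FDR = 0.00577 by edgeR) and 0.31 (SE 0.0537, FDR = 0.00084 by edgeR). It was the 1 factor of the 12 called higher in the thymus, against 3.17% of all genes, and *Runx3* the 1 called lower, against 2.99%. In the spleen 2 of the 12 were called higher, against 5.90%. The list's thymic count of higher calls fell to 0 without WT mouse 2, 3 or 5 or CD25 KO mouse 1 or 3. That count rose to 2 without WT mouse 1 or CD25 KO mouse 4.

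Genes that the study itself listed as central and effector Treg genes were also counted. Of 4 central genes, all 4 were called lower in the spleen, against 3.55% of all genes, with a median log2 fold change of -0.86, and *Ly6c1* (-1.30, SE 0.183, FDR = 0.000142 by edgeR) fell furthest. In the thymus their median was -0.10 and their FDR was 0.0284 or more by edgeR. Of 10 effector genes, all 10 were called higher in the spleen, against 5.90% of all genes, with a median of 1.01. In the thymus 6 of the 9 tested were called lower, against 2.99%, with a median of -1.05, and the count fell to 3 without CD25 KO mouse 1. The study chose both lists on these samples, so they are not independent evidence of a direction. *Bcl2* and *Ccr7* stand in the central list and in the FOXO list, and *Prdm1* and *Irf4* in the effector list and in the list of effector factors.

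**Figure D5:**
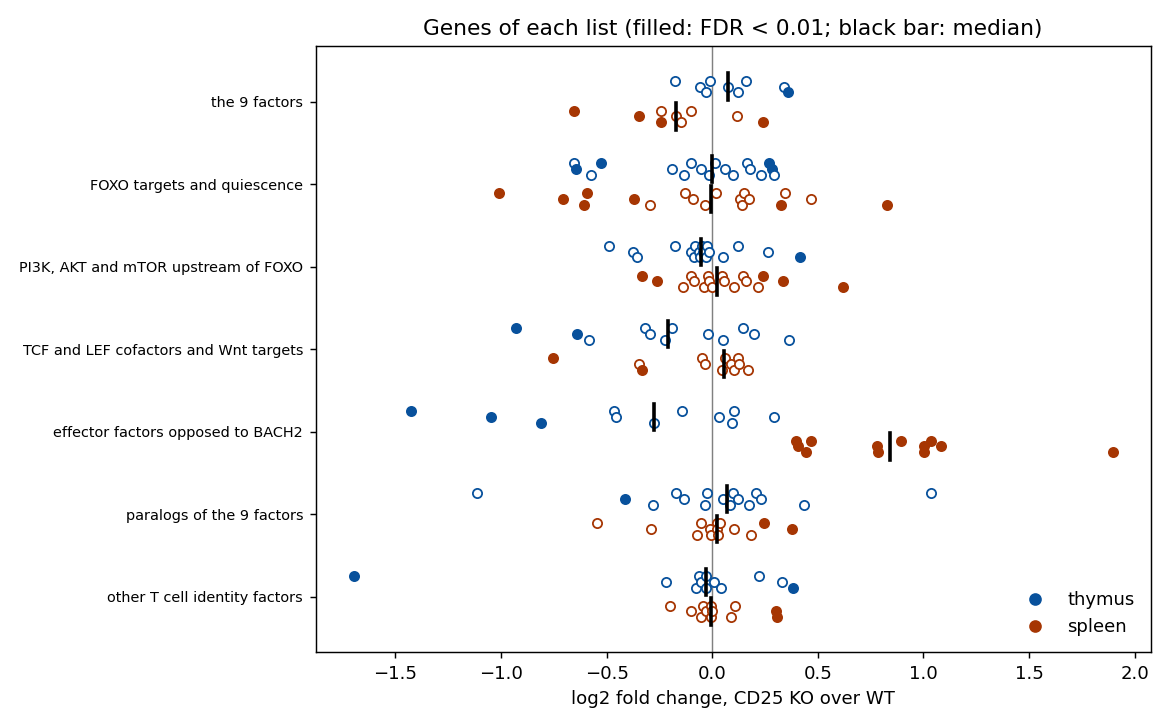
Log2 fold change of CD25 KO over WT for every tested gene of the 9 factors and of 6 related lists, in the thymus (blue) and the spleen (orange), with black bars for medians. Filled points passed FDR < 0.01, as did all 12 effector factors in the spleen, whose median is 0.84.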

How the data were processed

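RNA-seq libraries were made after ribosomal RNA depletion from sorted Tregs of individual mice and sequenced as paired-end reads. The authors aligned reads to GRCm38 with STAR (2.5.0b in the submitters' processing notes) and counted them per gene of GENCODE M13 with featureCounts (1.5.0), and the deposited values are raw counts per gene. Whether counting used strand is not given in the sources used here. Symbols, lengths and positions came from GENCODE M21, which named 50376 of 50600 genes.

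Counts were tested with edgeR (4.0.16) in R (4.3.3), using filterByExpr, TMM scaling, a quasi-likelihood fit within each tissue and Benjamini-Hochberg adjustment, with FDR < 0.01 as the threshold set by the study. Differences between tissues came from 1 fit of all 18 samples. CPM were TMM-scaled, and RPKM were CPM per kilobase of exons. Patterns were compared on log2 CPM with a prior count of 2, among genes with a mean log2 CPM of at least 3. The steps were tested on simulated data. A count of 3, regarded as the detection limit, equals at most 0.163 CPM in the thymus and 0.129 CPM in the spleen, and covers counting error only. Figures were drawn with matplotlib (3.10.9) in Python (3.11.15).

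The factors and gene lists were chosen with earlier results of these data known. Named genes were the 9 factors, up to 3 called genes per list, direction and tissue with the largest change, the 2 genes most like each factor, *Il2ra* and genes with overlapping exons. *Foxo4*, *Foxp4*, the splenic value of *Prdm1* and single marker genes were added after their values were seen. Some genes that these rules would name are not reported here. Alternatives were DESeq2 (1.42.0), RLE and upper-quartile scaling, no filter, a loess correction for GC content, FDR < 0.05, 1 fit of all samples, a replicate block in the thymus, omission of each mouse, and omission of the thymic CD25 KO mice 2 and 4. Promoter sequences were from RefSeq (GRCm38.p6).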

Additional observations from a re-analysis of the deposited data

Results flagged for a closer look

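Among 36 combinations of a factor and a group, 4 held a mouse whose gap to its nearest neighbor was large for the range of its group by Dixon's test at the 95% level, where chance alone gives about 1 in 20. *Foxo1* was at 323 CPM in splenic CD25 KO mouse 4, above the other 3, which lay between 288 and 291 CPM. *Tcf7* was at 793 CPM in splenic CD25 KO mouse 3, below the other 3. *Satb1* was at 1647 CPM in thymic WT mouse 3, above the other 4, and at 230.3 CPM in splenic CD25 KO mouse 2, below the other 3.

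The effect of CD25 KO differed between spleen and thymus for 15 genes by edgeR's interaction test with FDR < 0.01, where the log2 fold change in the spleen minus that in the thymus is given. These are 15 of 43 genes tested in both tissues, namely the 9 factors, genes that overlap them, *Il2ra*, *Foxp3* and the genes named from the lists. Of all 18686 genes, 2.49% were past the threshold as lower and 4.50% as higher in the spleen. The list genes were named for large changes within a tissue, so their share is not a result about them. The difference was negative for *Bach2* (-0.61), its antisense gene *Bach2os* (-0.95), *Foxp1* (-0.69), *Gm20696*, which overlaps *Foxp1* (-1.52), *Ccr7* (-0.58) and *Bcl2* (-1.004). It was positive for *Bcl6* (0.61), *Sgk1* (1.01), *Axin2* (0.78), *Etv6* (0.81) and *Runx3* (2.01). It was also positive for the effector factors *Prdm1* (2.06), *Irf4* (1.22), *Nfil3* (2.47) and *Bhlhe40* (1.06). Tissue, age, mouse model and the date in the column headers cannot be told apart in these differences.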

How the results depend on the processing

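In the spleen, the calls of *Bach2* and *Foxp1* were kept under the 15 alternatives tried, while those of *Foxo1* and *Tcf7* were not. Of the 9 factors, 4 were called in the spleen, and 2 with all 18 samples in 1 fit or 2 to 3 without single mice. Genes called in the spleen numbered 1651, against 3001 at FDR < 0.05, 795 with all 18 samples in 1 fit and 1099 to 1723 without single mice. In the thymus 1 factor, *Foxp1*, was called, against 2 at FDR < 0.05 and 2 without the CD25 KO mice 2 and 4, and 1 without any single mouse. Genes called in the thymus numbered 1047, against 2733 by DESeq2, 3951 at FDR < 0.05, 2881 with all 18 samples in 1 fit, 2008 without mice 2 and 4 and 371 to 1087 without single mice. Differences of the effects between tissues numbered 1305, against 2193 by DESeq2, 3149 at FDR < 0.05, 2307 without mice 2 and 4 and 817 to 1489 without single mice, and those of *Bach2* and *Foxp1* were kept throughout.

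Thymic WT and CD25 KO mice shared the numbers 1 to 5, and a fit with these as a replicate block called 209 genes, or 225 with a GC correction, and 0 of the 9 factors at FDR < 0.01 by edgeR, where *Foxp1* was at 0.36 (FDR = 0.0118 by edgeR). With the GC correction it was at 0.43 (FDR = 0.00571 by edgeR). Same-numbered mice correlated at -0.182 to 0.106, with 1 of 5 pairs over 0.1, and 3 of 10 mice correlated best with their own number. These values show no pairing by number, but 5 pairs are too few to exclude one.

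Effects that changed sign were near 0. The thymic log2 fold change of *Bach2* was 0.008 with upper-quartile scaling and 0.019 with the GC correction, with or without the block. That of *Lef1* was 0.029, 0.041 and, with the block, 0.045, and 0.07 without mice 2 and 4 and -0.061 to 0.048 without single mice. That of *Tcf7* was 0.074 with the GC correction and 0.08 with the block as well. The difference of the effects was -0.032 with upper-quartile scaling and -0.093 with the GC correction for *Foxo3*, and -0.022 with upper-quartile scaling for *Ets1*. *Foxp1* differed between WT tissues by 0.01 with the GC correction and by -0.059 to 0.016 without single mice. Of called genes, 51.5% were higher in the thymus, against 64.7% with upper-quartile scaling, 24.4% with the block and 32% with the block and GC correction. In the difference of the effects 64.4% were higher, against 47.9% and 50.2% with upper-quartile scaling and GC correction. Upper-quartile scaling moved the median of all genes between tissues without CD25 to -0.104. The causes were not tested. Across genes, log2 fold change and GC content had rank correlations of -0.41 (thymus) and -0.17 (spleen), and the GC content of the 9 factors was 46.1 to 57.7%.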
